A study of Homo sapiens with 2 samples.

Results

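PHF8 peaks that lay inside protein-coding genes and away from any gene end were described in RKO cells, an established human colon carcinoma line, by chromatin immunoprecipitation and sequencing (ChIP-seq). One group had been transfected with an empty vector and the other with an APOC2 overexpression plasmid, and each group had 1 library and 1 peak table. A peak was taken as intragenic when its midpoint was inside a protein-coding RefSeq gene and more than 1 kb from the start or end of every RefSeq gene with a transcript (GRCh38.p14). By this rule 150 of 4015 vector peaks (3.74%) and 543 of 8928 APOC2 peaks (6.08%) were intragenic, or 693 of 12943 in all. The labels gave neither the time after transfection nor the level of APOC2, and a peak table cannot check the cell type against its markers. With 1 library for each condition, every difference describes these libraries, and no test against replicate spread was possible.

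PHF8 is a histone demethylase whose PHD finger binds histone H3 trimethylated at lysine 4, a mark of active transcription starts, and whose catalytic domain removes repressive methyl groups from histones H3 and H4. APOC2 encodes apolipoprotein C-II, the secreted cofactor of lipoprotein lipase. Many genes have more than one promoter, so that a shorter transcript starts well inside the longest annotated gene body. Enhancers can also lie inside genes. A peak away from the outer gene ends can therefore lie at an internal start, at an enhancer or at neither, and bulk ChIP cannot tell the share of cells bound from the occupancy in each cell.

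Most of the intragenic peaks that could be placed lay beside an internal transcript start, so the promoters of the strongest of these are shown first. The sequences are the 250 bases before the listed start, read 5′ to 3′ on the strand of the gene, from RefSeq promoters of build GRCh38.p14, and capitals mark CpG dinucleotides. The first 4 belong to the shared peaks at a listed start with the highest enrichment in the APOC2 library. HSPA12A encodes a distant relative of the Hsp70 chaperones (chr10:116742567-116742816, minus strand), ZNF782 and ZNF563 encode zinc finger proteins (chr9:96854515-96854764 and chr19:12333634-12333883, minus strand), and PTPN3 encodes a tyrosine phosphatase (chr9:109498308-109498557, minus strand).
HSPA12A: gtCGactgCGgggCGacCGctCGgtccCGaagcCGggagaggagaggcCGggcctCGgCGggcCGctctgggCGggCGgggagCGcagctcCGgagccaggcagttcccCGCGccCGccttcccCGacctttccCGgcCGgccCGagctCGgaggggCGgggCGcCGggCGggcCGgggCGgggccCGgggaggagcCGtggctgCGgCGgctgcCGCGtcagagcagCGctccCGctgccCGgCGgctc
ZNF782: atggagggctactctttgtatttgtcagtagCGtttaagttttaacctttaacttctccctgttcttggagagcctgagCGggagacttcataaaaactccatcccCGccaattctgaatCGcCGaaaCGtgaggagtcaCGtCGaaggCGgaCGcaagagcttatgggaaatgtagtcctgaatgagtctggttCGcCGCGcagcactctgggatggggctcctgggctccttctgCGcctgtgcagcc
ZNF563: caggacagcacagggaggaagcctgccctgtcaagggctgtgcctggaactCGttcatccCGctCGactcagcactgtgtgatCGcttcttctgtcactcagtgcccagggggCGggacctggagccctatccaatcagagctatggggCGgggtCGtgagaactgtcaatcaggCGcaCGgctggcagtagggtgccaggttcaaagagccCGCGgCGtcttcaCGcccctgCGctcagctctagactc
PTPN3: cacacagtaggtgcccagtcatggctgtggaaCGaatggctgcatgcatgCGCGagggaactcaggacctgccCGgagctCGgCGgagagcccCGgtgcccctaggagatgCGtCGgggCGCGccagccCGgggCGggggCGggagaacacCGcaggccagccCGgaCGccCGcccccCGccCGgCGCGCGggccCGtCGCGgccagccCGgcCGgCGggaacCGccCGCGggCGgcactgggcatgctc
The next 3 belong to the strongest APOC2 peaks at a listed start that no vector peak overlapped. CADM4 encodes a cell adhesion molecule (chr19:43639851-43640100, minus strand), AGTPBP1 a carboxypeptidase that shortens glutamate chains on tubulin (chr9:85741955-85742204, minus strand) and SEC14L1 a protein of the SEC14 lipid-transfer family (chr17:77140719-77140968, plus strand).
CADM4: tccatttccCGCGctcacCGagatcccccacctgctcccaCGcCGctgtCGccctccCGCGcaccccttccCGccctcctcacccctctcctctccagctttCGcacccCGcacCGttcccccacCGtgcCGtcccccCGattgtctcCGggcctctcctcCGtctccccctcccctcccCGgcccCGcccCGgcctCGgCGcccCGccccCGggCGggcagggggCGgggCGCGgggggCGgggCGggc
AGTPBP1: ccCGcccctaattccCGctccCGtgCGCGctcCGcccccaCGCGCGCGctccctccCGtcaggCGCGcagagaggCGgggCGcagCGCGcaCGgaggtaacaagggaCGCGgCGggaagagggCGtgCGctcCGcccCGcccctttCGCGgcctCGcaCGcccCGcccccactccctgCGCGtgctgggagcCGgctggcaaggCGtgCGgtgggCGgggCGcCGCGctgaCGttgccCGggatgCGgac
SEC14L1: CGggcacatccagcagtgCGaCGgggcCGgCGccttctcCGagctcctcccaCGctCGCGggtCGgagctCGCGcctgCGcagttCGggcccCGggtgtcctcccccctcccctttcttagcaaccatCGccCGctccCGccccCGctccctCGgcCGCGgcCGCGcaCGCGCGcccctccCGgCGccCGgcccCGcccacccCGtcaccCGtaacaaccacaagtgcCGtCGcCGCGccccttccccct
These stretches held 39 CpG in HSPA12A, 33 in PTPN3, 30 in CADM4, 42 in AGTPBP1 and 37 in SEC14L1. The zinc finger genes had fewer, with 14 each, and a GC content of 52.8% in ZNF782 and 62.4% in ZNF563 against 77.2% to 82.4% in the other 5. GGGCGG, the core of the GC box, was found on either strand in all of these stretches but that of ZNF782. The stretches are promoter sequence and not peak sequence. The peaks of ZNF782 and SEC14L1 and the vector peak of PTPN3 did not reach them, and that of AGTPBP1 overlapped only the edge.

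Intragenic peaks were 3.62 times as numerous with APOC2 as with the vector (95% interval 3.02 to 4.34). The ratio was 4.15 (3.89 to 4.42) for peaks with a midpoint within 1 kb of a gene end, and the intervals overlapped. It was 1.81 (1.57 to 2.09) for peaks outside genes and outside gene-free intervals of at least 1 Mb, an interval below that of the intragenic peaks. Nearly all intragenic vector peaks recurred. Of the 150, 143 (95.3%, 90.7 to 97.7%) were overlapped by an APOC2 peak and 7 were not, while over all vector peaks 16.4% were not. Of the 543 intragenic APOC2 peaks, 143 (26.3%, 22.8 to 30.2%) had a vector partner. The other 400 had none, while 62.7% of all APOC2 peaks had none. At gene ends 97.5% of vector peaks and 22.9% (21.7 to 24.1%) of those with APOC2 had a partner, so the intervals for intragenic and gene-end APOC2 peaks overlapped as well. Outside genes these shares were 69.5% and 39.6%. A peak without a partner is one that passed the caller's threshold in 1 table only, and signal below the threshold in the other library is not shown by these tables.

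The APOC2 peaks that a vector peak overlapped were the stronger ones. Their median fold enrichment over the local background was 7.27 (6.82 to 7.69), with a median pileup of 34 fragments at the summit and a median length of 456 bp. The 400 without a vector partner had medians of 4.98 (4.84 to 5.22), 23.5 fragments and 287 bp. Between the libraries the medians over all intragenic peaks had overlapping intervals. The median fold enrichment of intragenic peaks was 5.48 (5.06 to 5.90; quartiles 4.45 and 6.55) in the vector library and 5.31 (5.196 to 5.53; quartiles 4.39 and 6.94) in the APOC2 library. Peaks at gene ends had medians of 5.11 and 5.27.

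**Figure D1:**
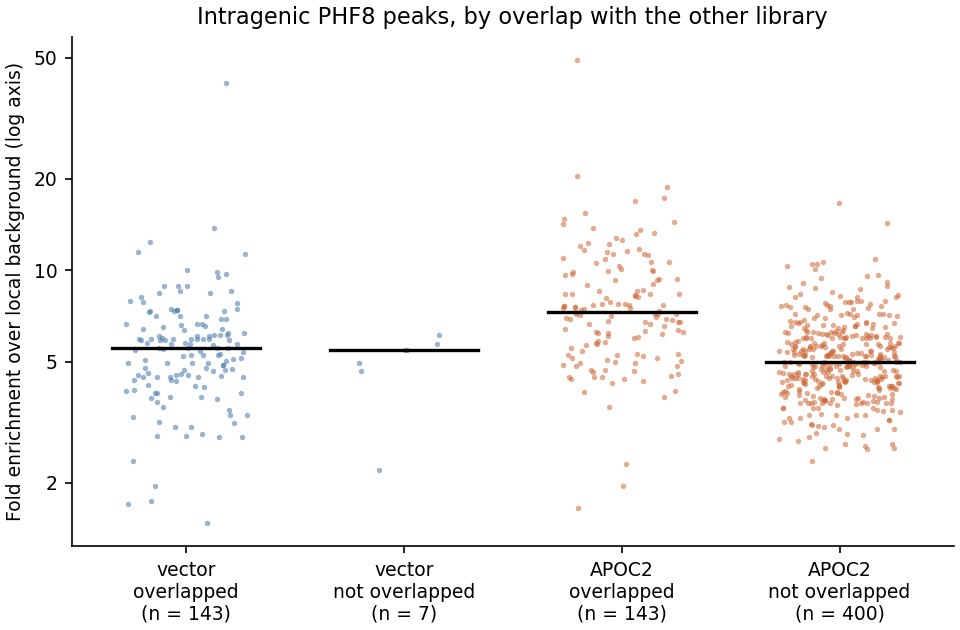
Fold enrichment over local background (log axis) of each intragenic peak, by library and by whether a peak of the other library overlapped it. Each point is a peak and each line a median; the 143 overlapped APOC2 peaks have a median of 7.27 and the 400 others 4.98, with points of both groups across most of the range.

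Where both libraries had an intragenic peak at the same place, enrichment was mostly higher with APOC2. The overlapping peaks formed 139 pairs, and 2 vector and 3 APOC2 peaks were paired with a peak of another class. On the log2 scale the enrichment of the APOC2 peak exceeded that of its vector partner by a median of 0.47 (0.36 to 0.56), and it was the higher in 122 pairs (87.8%). A rise of at least 1.5-fold was seen in 52 pairs (37.4%), against 17.6% of all pairs in the tables, and a fall of that size in 1 pair (0.719%), against 7.97%. Of gene-end pairs, 42.1% rose and 0.275% fell by as much. Gene-end pairs had a median of 0.51 (0.48 to 0.53), an interval that overlapped that of the intragenic pairs, and pairs outside genes had -0.083 (-0.12 to -0.0024). Nearly all vector pileups were multiples of 0.990, and 64.3% of the APOC2 backgrounds above 1.5 were multiples of 0.832 fragments. These steps were read as the factors that brought library and control to equal depth, which no source used here states. Pileup in these unequal units gave a median log2 ratio of 0.22 (0.17 to 0.30). With the APOC2 pileup divided by 0.832 it was 0.49 (0.43 to 0.57), with 128 pairs above 0. With the APOC2 background divided in the same way, the background had a median log2 ratio of -0.012 at the intragenic pairs.

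**Figure D2:**
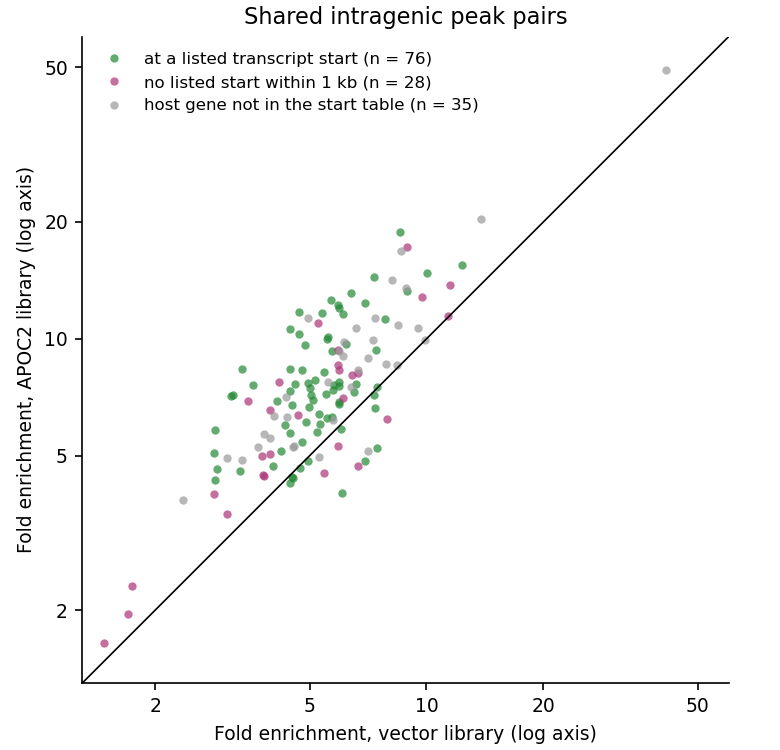
Fold enrichment of the 139 shared intragenic pairs in the vector library (horizontal, log axis) and the APOC2 library (vertical, log axis). Each point is a pair, coloured by its place relative to listed transcript starts, and the line marks equal values; 122 points lie above it.

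Among the strongest pairs was that in ARHGAP39, which encodes a GTPase-activating protein, with enrichment of 13.8 in the vector library and 20.4 with APOC2 at chr8:144685269-144686325. At the printed HSPA12A promoter the enrichment was 12.4 in the vector library and 15.5 with APOC2. Beside that of ZNF782, whose printed bases neither peak reached, it was 8.53 and 18.8, with pileups of 24.7 and 52 fragments, a log2 ratio of 1.14. ZNF563 had 10.1 and 14.8, and PTPN3 had 7.33 and 14.4. In all 4 the APOC2 value was the higher, but they were picked by that value, which favours this direction. KHDRBS2, the gene of an RNA-binding protein, had 8.91 and 17.3 at a site that also covered the mitochondrial-like MTRNR2L9. RMDN1, linked to microtubule dynamics, had 8.58 and 16.9, and ADAP1, an Arf GTPase-activating protein, had 11.5 and 13.8. These pairs were picked for their enrichment, so their levels and directions are a description.

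The 5 largest rises lay in ACSS2, RRAS2, TJP1, STK3 and SMAD1, and they too were picked by their values. ACSS2 encodes the cytosolic and nuclear acetyl-CoA synthetase, and its pair rose from 3.34 to 8.34, a log2 ratio of 1.32. RRAS2 encodes a Ras-related GTPase, with 4.70 and 11.7 (log2 ratio 1.32). TJP1 encodes the tight-junction protein ZO-1, with 4.45 and 10.6 (1.25). STK3, a Hippo pathway kinase, had 4.95 and 11.3 (1.20). SMAD1, which carries BMP signals, had 3.14 and 7.13 (1.19). At SMAD1 the pileup was 17.8 and 18 fragments while the background was 5.00 and 1.66, each in the units of its own table, and the depth-scaled pileup gave a log2 ratio of 0.28. The other 4 had 0.75 to 1.43 by that measure. All of the 5 except STK3, whose host was not in the start table, lay at a listed start.

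Falls were fewer and smaller. COX7A2, which encodes a subunit of cytochrome c oxidase, had 6.07 in the vector library and 4.003 with APOC2, a log2 ratio of -0.60, the only pair with a fall of at least 1.5-fold. Its depth-scaled pileup moved the other way, by 0.40. MAT2B, the regulatory subunit of methionine adenosyltransferase, had 6.93 and 4.85 (-0.51), the zinc finger gene ZSCAN31 had 7.47 and 5.24 (-0.51), the uncharacterised LOC101927345 had 6.65 and 4.69 (-0.50), and IQANK1 had 7.06 and 5.15 (-0.46). Depth-scaled pileup was lower with APOC2 in these 4, with log2 ratios of -0.49 to -0.025.

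The intragenic peaks were next set against listed transcript starts. The RefSeq promoter table listed starts and strand for the hosts of 113 vector and 428 APOC2 peaks. The hosts of 37 and 115 peaks were not listed, 26 and 71 of them on chromosome 8, and these peaks were left unassigned. Of the 113 vector peaks, 78 (69.0%, 59.99 to 76.8%) were centred no more than 1 kb from a listed start, and of the 428 APOC2 peaks 307 (71.7%, 67.3 to 75.8%) did. Of positions that met the distance rule in protein-coding genes of that table, sampled every 200 bp, 0.881% lay that close to one. In both libraries all but 1 of these starts belonged to the host gene, and the exception was a start of the readthrough gene ST6GALNAC4-ST6GALNAC6-AK1. At 500 bp the shares were 65.5% and 66.8%.

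Summits sat just downstream of these starts. The median summit lay 152 bp (113 to 186) downstream in the vector library and 129 bp (113 to 138) downstream with APOC2. It was downstream for 80.8% (70.7 to 88.0%) of the vector and 76.9% (71.8 to 81.2%) of the APOC2 peaks. Within 250 bp of the start lay 80.8% and 76.5% of the summits. The peak itself covered the start in 43.6% of cases in both libraries.

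**Figure D3:**
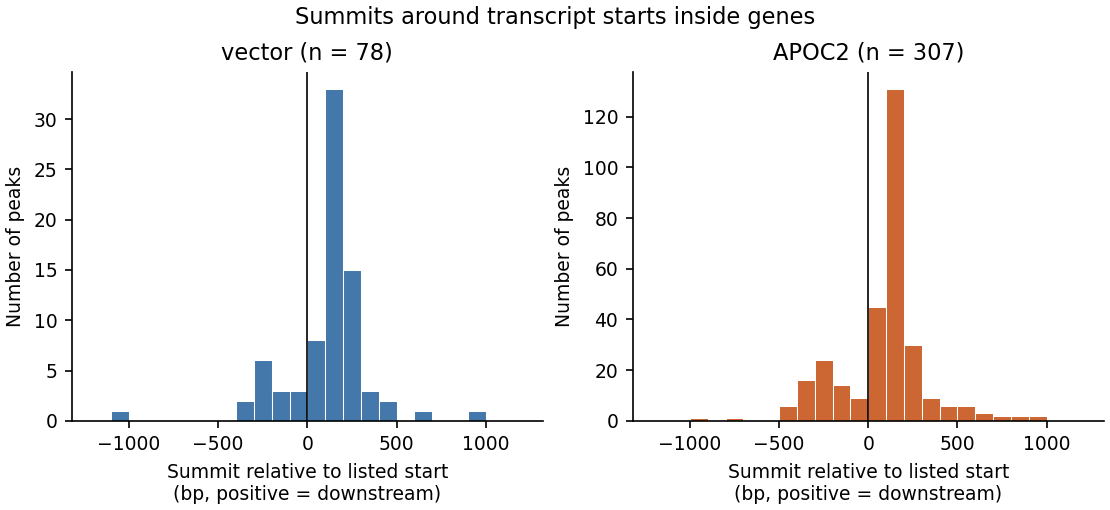
Distance of peak summits from the nearest listed transcript start inside the gene (bp, positive values downstream on the strand of the gene) for the 78 vector and 307 APOC2 peaks at a listed start. Bars count peaks in 100 bp bins; both libraries have their highest bar just downstream of the start, where the medians of 152 and 129 bp lie.

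All 78 vector peaks at a listed start were overlapped by an APOC2 peak (interval from 95.3%), and 30 of the 35 others (85.7%, 70.6 to 93.7%) were. The 35 included 4 peaks in PCBD2, 3 in DUX4 and 3 in LOC101927345. The intervals did not overlap, but they treat such neighbouring peaks as independent and cannot settle a difference. In the APOC2 library 79 of 307 peaks at a listed start (25.7%, 21.2 to 30.9%) and 29 of 121 others (24.0%, 17.2 to 32.3%) had a vector partner. The numbers of peaks were in a ratio of 3.94 (3.07 to 5.04) at listed starts and 3.46 (2.38 to 5.03) elsewhere. Median fold enrichment in the APOC2 library was 5.38 (5.15 to 5.64) at listed starts and 5.14 (4.93 to 5.42) elsewhere, and median pileup was 27 and 22 fragments. The 76 pairs at listed starts had a median log2 ratio of 0.51 (0.36 to 0.65), and 34 rose at least 1.5-fold. The 28 pairs without one had 0.34 (0.21 to 0.48), and 6 rose that much. Without pairs over mitochondrial-like pseudogenes the remaining 24, which still included DUX4 and LOC101927345, had 0.28 (0.20 to 0.48). The intervals of these medians overlapped.

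Within the host gene, peaks were gathered towards the 5′ end. The first 25% of the gene held 51.3% (42.2 to 60.3%) of the vector and 51.4% (46.7 to 56.1%) of the APOC2 peaks, against 24.3% of the bases that met the distance rule. The last 25% held 11.5% and 10.7%. The median position was 24.7% of the gene length from the 5′ end in the vector library and 24.3% with APOC2. Peaks without a listed start were spread more evenly: 34.7% (26.8 to 43.5%) of those in the APOC2 library lay in the first 25%, against 58.0% (52.4 to 63.4%) of those at listed starts. In base pairs, the median distance to the nearest gene end was 6584 bp in the vector library and 5944 bp with APOC2. The host genes were long, with medians over peaks of 78.3 and 78.4 kb.

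**Figure D4:**
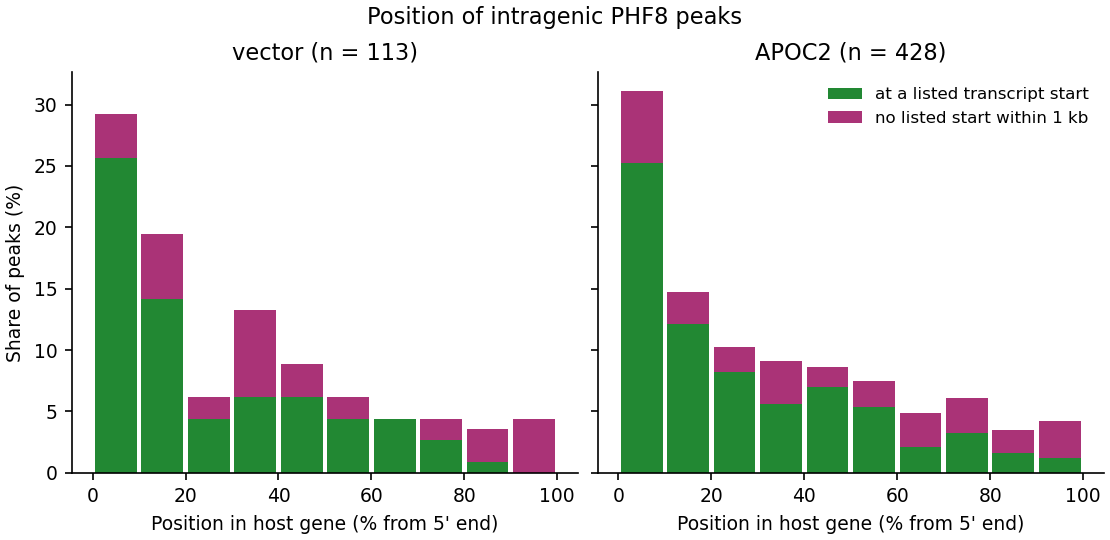
Share of intragenic peaks (percent) by position in the host gene, in steps of 10% from the 5′ end, for the 113 vector and 428 APOC2 peaks whose host has a listed strand. Stacked colours separate peaks at a listed transcript start from the rest; in both libraries the first bar is the highest.

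How often an internal start carried a peak was counted over 3829 clusters of internal starts in protein-coding genes outside chromosome 8. The start of SEC14L1 was not among them, since it lies within 1 kb of the end of LOC105371901. An intragenic APOC2 peak lay at 266 clusters (6.95%), a vector peak at 72 (1.88%), and 71 had both. The outer 5′ ends of protein-coding genes had an APOC2 peak within 1 kb in 24.0% of 15842 cases and a vector peak in 5.50%. In genes that have an internal start these shares were 16.5% and 3.81% of 2938.

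Genes with a peak at an internal start had one at the outer 5′ end about as often as all genes with an internal start. Of the 261 genes with an APOC2 peak at an internal start, 212 (81.2%) had no APOC2 peak at the outer 5′ end, and of the 71 with a vector peak, 68 (95.8%) had no vector peak there. The shares with an outer peak were thus 18.8% (14.5 to 24.0%) and 4.23% (1.45 to 11.7%), and both intervals held the 16.5% and 3.81% of all genes with an internal start. The 3 with a vector peak at both were CIZ1, a cyclin-dependent kinase inhibitor binding protein, UIMC1, which acts in DNA damage repair, and PRRC2B. In 118 of the 261 (45.2%) every listed start was internal, so that for these genes the table listed no start at the outer end. Of the 143 with a listed outer start, 31 (21.7%) had an APOC2 peak at the outer end. ZNF782, HSPA12A, ZNF563 and PTPN3 were among the genes with all listed starts internal, and their starts lay 79.3, 108, 13.8 and 40.1 kb from the outer end. So were CADM4 and AGTPBP1, at 2.13 and 63.5 kb, and AGTPBP1 had a peak at its outer 5′ end in both libraries. RRAS2, SMAD1, ACSS2 and TJP1 had a listed outer start and no peak at it in either library. Their internal starts lay 5.68, 1.56, 1.62 and 147.5 kb from the outer end, so those of SMAD1 and ACSS2 were not far past the 1 kb limit. APC, a negative regulator of WNT signalling, had an APOC2 peak at both, and the inner one had a fold enrichment of 7.93.

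The promoters at these internal starts were rich in CpG. In the 300 bases around the start (250 before, 50 after), GC content had a median of 70.2% and the ratio of observed to expected CpG a median of 0.85 (0.81 to 0.88) at the 266 clusters with an APOC2 peak. CpG-rich promoters, with at least 50% GC and a ratio of at least 0.6, made up 86.8% (82.3 to 90.4%) of them. At the 3562 internal clusters without an intragenic peak the medians were 54.0% and 0.34, and 26.2% were CpG-rich. At outer starts with an APOC2 peak 91.3% were, and without one 55.4%. Over all 35085 listed promoters it was 46.9%. Internal starts with a peak in both libraries (90.1%, 81.0 to 95.1%) and with an APOC2 peak only (85.6%, 80.0 to 89.9%) had overlapping intervals.

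**Figure D5:**
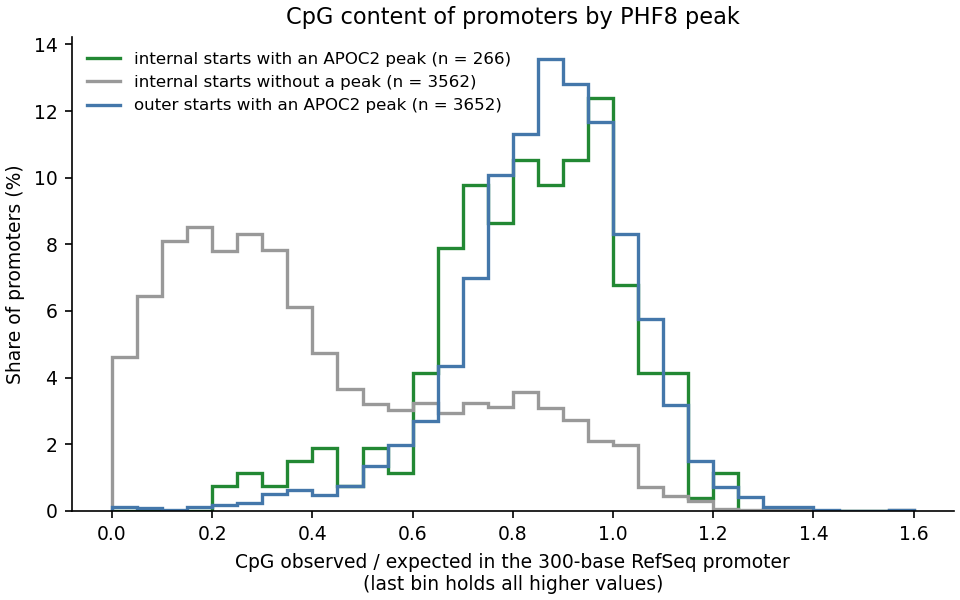
Ratio of observed to expected CpG (horizontal) in 300-base RefSeq promoters, as the share of promoters in each class (vertical, percent). Lines stand for 266 internal starts with an intragenic APOC2 peak, 3562 without a peak in either library and 3652 outer starts with an APOC2 peak; the first and last have medians of 0.85 and 0.88, the second 0.34.

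Short motifs were counted in the same promoters, as a description of letters and not of binding. Both strands were searched, except for TATAAA, which was counted on the strand of the gene only. GGGCGG was in 80.1% of the internal promoters with an APOC2 peak, in 32.8% of those without and in 44.9% of all listed promoters. CGGAAG, the core of ETS family sites, was in 23.7% of them, 19.4% of all promoters and 38.6% of outer promoters with a peak. TATAAA was in 1.504% against 7.33% of all, and TGANTCA, the AP-1 site, in 3.01% against 7.70%. For the E-box CACGTG the shares were 7.89% and 7.25%, for GCATGCG 4.51% and 3.91%, and for AAGATGG 4.51% and 5.84%. In internal promoters without a peak, CGGAAG was in 11.1%, TATAAA in 8.34% and TGANTCA in 10.1%. There CACGTG was in 5.67%, GCATGCG in 2.33% and AAGATGG in 3.93%, so for AAGATGG the direction depended on the comparison. The motif shares were not adjusted for GC content, whose median was 70.2% with an APOC2 peak and 54.0% without.

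A smaller group, 35 vector and 121 APOC2 peaks, had no listed start within 1 kb. The listed starts are not complete, so these peaks may still lie at a start that is not listed. In this group was a shared pair in ERBB2, the receptor tyrosine kinase gene, 12.1 kb from its 5′ end in the vector library. Its enrichment was 5.91 in the vector library and 9.38 with APOC2. MACF1, which links actin and microtubules, had 3.96 and 6.58 at 21.3 kb, and DOCK1, an activator of Rac, had 3.96 and 5.04 at 42.8 kb. The APOC2 value was higher in all 3. ABR went the other way, with 7.91 and 6.22. Several peaks of this group lay over sequence that recurs elsewhere. PCBD2 had 4 vector and 3 APOC2 peaks over mitochondrial-like pseudogenes such as MTND5P11 and MTCYBP18, with enrichment of 1.75 to 12.8, pileups of 131 to 263 and backgrounds of 19.6 to 97.7 fragments. DUX4, which lies in a tandem repeat, had 3 and 2, with enrichment of 1.48 to 2.199 and backgrounds of 26.0 to 213 fragments. The median background of all intragenic peaks, in the units of each table, was 4.02 in the vector library and 3.79 with APOC2. How far reads with several possible origins shaped these peaks was not tested. Without the mitochondrial-like sites, DUX4 and LOC101927345, the median log2 ratio of the remaining intragenic pairs was 0.48.

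The strongest APOC2 peak without a vector partner lay in HSD17B12, an enzyme of fatty acid elongation, at chr11:43680679-43681092, with a fold enrichment of 16.7 and a pileup of 43 fragments over a background of 1.63. CADM4 followed with 14.3 at the printed promoter, then ADAMTS9, a secreted metalloprotease, with 10.9. AGTPBP1 had 10.6 and the highest pileup of the 10, 56 fragments over a background of 4.36. SEC14L1 had 10.5, RSRP1 10.5, LIMCH1, a regulator of non-muscle myosin, 10.3, ZNG1E 10.1, ZNF385A 9.67, and OSBP2, an oxysterol-binding protein, 9.57. Of these 10, CADM4, AGTPBP1, SEC14L1, LIMCH1 and ZNG1E lay at a listed start, RSRP1 and OSBP2 did not, and the hosts of the other 3 were not in the start table. The 7 vector peaks without a partner had a median fold enrichment of 5.45, near the 5.54 of those with one, and a median pileup of 9.90 against 26.7 fragments. The highest fold enrichment was 6.12 in LOC101927345, followed by 5.73 in ADAP1, 5.45 in ANKRD36B and in SAMD12, and 4.96 in ERC1, a scaffold protein of the cell cortex. The remaining 2, in ASAP1 and DUX4, had 4.67 and 2.199. None of the 7 lay at a listed start, though SAMD12 and ASAP1 could not be assigned.

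By host gene, 365 protein-coding genes had an intragenic peak in the APOC2 library only, 134 in both and 4 in the vector library only. Of the 18780 protein-coding genes longer than 2 kb, 499 (2.66%) were hosts in the APOC2 and 138 (0.735%) in the vector library. The 4 were ANKRD36B, ERC1, PHLPP2 and SPIRE1. In PHLPP2, a phosphatase that acts on AKT, and SPIRE1, an actin nucleator, an APOC2 peak did overlap the vector peak but its midpoint lay outside the class. Hosts with 3 APOC2 peaks included ABR, IQANK1, NFIB, PCBD2, TLK2 and TUBA1C. NFIB, a transcription factor, had 3.52, 4.56 and 5.15, all at listed starts and none with a vector partner. TLK2, a kinase of chromatin assembly, had 3.45, 5.58 and 5.82, and 1 of the 3 had a vector partner of 2.86. TUBA1C, an alpha-tubulin, had 4.55, 4.67 and 5.36 with no vector partner.

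Named gene groups supplied few hosts. Of 40 genes with known internal promoters, 3 were hosts in the APOC2 library (MACF1, PLEC and TPD52) and 1 in the vector library (MACF1). PLEC, the cytoskeletal linker plectin, had 3.34 and 4.39, and TPD52 had 3.75. Of 58 genes for histone methylation and chromatin, 3 were APOC2 hosts and 0 vector hosts. These were PRDM2 (5.38, at a listed start), the BAF complex subunit ARID1B (4.50) and KDM7A, a demethylase of the same family as PHF8 (3.06). Of 46 genes for WNT and TGF-beta signalling and colon cancer, 4 were APOC2 hosts and 1, ERBB2, was also a vector host. Beside ERBB2 these were APC (7.93), the WNT feedback gene AXIN2 (6.34) and the BMP receptor gene BMPR1A (3.97), none with a vector partner. Of 44 genes for lipid handling, HSD17B12 and ACACA, the acetyl-CoA carboxylase gene (7.17, at a listed start), were APOC2 hosts and 0 were vector hosts. Genes with a ZNF symbol were 19 of the APOC2 hosts (3.81%) and 5 of the vector hosts (3.62%), against 2.75% of eligible genes. The 5 were ZNF329, ZNF563, ZNF574, ZNF777 and ZNF782, and in each the APOC2 pair value was higher.

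The chromosomes differed in recurrence. Chromosomes 8 and 9 held 30.7% of the intragenic vector peaks and 21.9% of the APOC2 peaks. A vector partner was found for 33.8% (23.9 to 45.4%) of APOC2 peaks on chromosome 8, 45.8% (32.6 to 59.7%) on chromosome 9 and 22.9% (19.1 to 27.1%) elsewhere. The interval for chromosome 8 overlapped that for elsewhere. Over the 17 other chromosomes with at least 11 intragenic APOC2 peaks the share ranged from 8.82%, on chromosome 2, to 47.8%, on chromosome 5. The median log2 ratio was 0.54 (0.34 to 0.65) over the 44 pairs on chromosomes 8 and 9 and 0.40 (0.33 to 0.52) over the 95 others, and the intervals overlapped. Gene-end APOC2 peaks had a vector partner in 50.7% of cases on chromosomes 8 and 9 and in 18.6% elsewhere. The distance rule set the number of peaks. Between 500 and 1000 bp from a gene end lay 71 vector and 327 APOC2 peaks, with median fold enrichments of 4.86 and 5.15, and between 1000 and 1500 bp lay 22 and 93, with 5.66 and 5.74. With a minimum of 3 kb in place of 1 kb, 354 APOC2 peaks remained.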

How the data were processed

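PHF8 ChIP-seq peaks of 1 vector and 1 APOC2 library of RKO cells were analysed, grouped by the treatment in the labels. The submitters' processing notes name Bowtie2 2.2.9, MACS2 2.0, HOMER and build hg38; the control library and thresholds are not given in the sources used here. Per the file headers, the deposited tables give each peak's pileup signal at the summit and its fold enrichment. The deposited -log10 p and -log10 q columns had lost their names and were told apart by place and values. Peak values are the authors'. No read totals are given, so absolute depth is unknown, and depth-scaled pileup divides by the step read from the table.

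Genes came from the RefSeq table of GRCh38.p14 (59679 placed genes, 43043 with a transcript), starts and strand from a RefSeq promoter table that is not complete and was used without chromosome 8. Exons and the sequence under the peaks were not analysed here; promoters at listed starts took the place of the planned peak sequences. Peaks sharing at least 1 bp (bedtools 2.31.1) were shared and were paired by longest overlap, each used once. Eligible bases are those of protein-coding genes more than 1 kb from any gene end. Intervals of 95% are Wilson's for shares, also behind the ratios of numbers, and are taken from binomial order statistics for medians. Intervals cover counting error over peaks only, and peaks are not replicates. The code was tested on simulated data. Python 3.11.15 with pandas 2.3.3 was used.

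The members and gene lists were chosen with earlier results of these data known. Genes named are the hosts of the 10 strongest APOC2 and 5 strongest vector peaks without a partner, the 8 strongest pairs, the 5 largest rises and falls, the 5 longest peaks of each library, hosts of 3 or more peaks, and list members; some items under this rule are not reported here. PTPN3, CIZ1, UIMC1, PRRC2B, ASAP1, the hosts in the vector library only and the ZNF genes were named after their values were seen. Alternatives changed the distance rule, the thresholds, the overlap, the measure and the chromosomes.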

Additional observations from a re-analysis of the deposited data

How the results depend on the processing

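Of 89 recomputed values, 70 stayed within their interval (counts: within 1.5 times), 19 moved and 0 reversed. With more than 3 kb from a gene end there were 354 APOC2 peaks, 223 hosts in the APOC2 library only, medians to the nearest end of 12419 bp (vector) and 12614 bp (APOC2), and 38.8% and 35.3% in the first 25% of the gene; the rule itself removes the peaks nearest the ends. With more than 500 bp there were 870 APOC2 peaks. A fold enrichment of at least 5 left 89 vector and 312 APOC2 peaks, 89.9% of the former shared, 221 hosts in the APOC2 library only and 79 in both. Requiring an overlap of 50% of both peaks left partners for 72.0% of vector peaks and 20.3% of those with APOC2. The median log2 ratio of pairs was 0.22 with pileup and 0.68 with -log10 p. The median of unpartnered over partnered APOC2 peaks was 0.684 for fold enrichment and 0.519 for -log10 p. Listed starts lay within 500 bp of 66.8% and within 2 kb of 77.8% of APOC2 peaks, settings chosen after seeing the data. Where no cause is given, the cause was not tested. No paired analysis was possible because each condition had 1 library, and for the same reason no replicate could be left out. Depth limits weak peaks most: a site without a peak in the vector library may hold signal below its threshold.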

Other observations

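RNF19A and HECTD2 held intragenic peaks that were among the longest of the APOC2 library. In RNF19A, an E3 ubiquitin ligase gene on chromosome 8, the APOC2 peak was 1470 bp long with a fold enrichment of 9.93, and the vector peak that it overlapped had 7.30. In HECTD2, also a ubiquitin ligase gene, the APOC2 peak was 1142 bp long and lay at a listed start, with 7.16 against 7.33 in the vector library, while the pileups were 30 and 22.8 fragments. Among the ZNF hosts, APOC2 peaks without a vector partner reached a fold enrichment of 9.67 in ZNF385A, 9.15 in ZNF875, 8.18 in ZNF892, 7.80 in ZNF574 and 7.11 in ZNF19.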
